A study of Mus musculus with 8 samples.

Results

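The question addressed here is whether the heart's transcriptome responded to isoproterenol differently in mice without Set7 than in wild-type mice. The quantity described is the interaction, the response to isoproterenol in Set7KO less the response in WT, each response being the log2 ratio of isoproterenol over saline. All 8 libraries of the series enter it, 2 in each of 4 groups, and the rule for choosing them uses no measured value. The groups were hearts of WT mice given saline, WT mice given isoproterenol, Set7KO mice given saline and Set7KO mice given isoproterenol. Isoproterenol was given at 60 mg per kg under the skin on each of 14 days, and saline on the same schedule. Set7KO mice carry a global knockout and came from crosses of heterozygotes, so the loss is not limited to 1 cell type of the heart. Strain, age and sex are not given in the labels, and the labels do not say that the 2 libraries of a group came from separate animals, so the p-values reflect only how far these libraries spread, which may be technical. A positive interaction means that the isoproterenol to saline ratio was higher in Set7KO than in WT.

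Isoproterenol is an agonist of the beta-adrenergic receptors, which act through stimulatory G proteins, cAMP and protein kinase A to raise calcium cycling and contraction in cardiomyocytes. Sustained infusion or injection is a common model of hypertrophy, fibrosis and inflammation of the heart. Set7 is the product of Setd7, a lysine methyltransferase gene. The enzyme places a single methyl group on histone H3 lysine 4 and also methylates other proteins, among them transcription factors and signalling proteins. In a bulk heart sample a lower level of a cell type's transcripts can mean fewer such cells or less RNA in each, and these cannot be told apart.

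Library totals ranged from 27847069 to 51705705 counts, the largest in Set7KO saline replicate 2, and a level of 3 counts corresponds to 0.0598 to 0.112 CPM, the count scaled to a common library size. The libraries had the transcripts of heart muscle: Myl3, the essential light chain of slow muscle and ventricle, measured 12540 and 15440 normalised CPM in the WT saline libraries, 5664 and 5969 in the WT isoproterenol libraries, 11660 and 7290.0 in the Set7KO saline libraries and 7778 and 10830 in the Set7KO isoproterenol libraries. All 8 libraries had the Y-linked Ddx3y at 0.762 normalised CPM or above and at most 15 counts of Xist. Setd7 itself (ENSMUSG00000037111, chr3:51515319-51560879, minus strand, GRCm38) measured 43.7 and 42.96 normalised CPM in WT saline, 58.1 and 72.6 in WT isoproterenol, 4.45 and 5.70 in Set7KO saline and 3.79 and 3.92 in Set7KO isoproterenol. The Set7KO libraries lay below every WT library, which accords with the labels, with transcripts of the gene still counted in each of them. The interaction of Setd7 was -0.99 ± 0.32 (log2 ± SE, adjusted p = 0.110), and -0.22 with the GC and length offsets described next.

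No gene passed the test of the interaction at an adjusted p of 0.05 among 17636 genes tested (edgeR's quasi-likelihood test with Benjamini-Hochberg adjustment, lowest adjusted p = 0.0876). At an unadjusted p under 0.05 there were 5400 genes (30.6%), 2115 of them higher in the Set7KO response (12%) and 3285 lower (18.6%). Other analyses differed widely in what passed: DESeq2 called 2321 genes, limma-voom 0, and edgeR called 5778 without Set7KO saline replicate 1 and 1 without Set7KO saline replicate 2. The median interaction was -0.05 on the log2 scale, with quartiles of -1.06 and 0.67, and 6870 genes lay more than 1 log2 unit from 0.

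The responses ran in opposite directions in many genes. For 1940 genes (11%) both isoproterenol libraries lay above both saline libraries in WT and below both in Set7KO, and for 1337 genes (7.58%) the reverse held. Fewer genes lay on the same side in both genotypes without overlap, 525 above saline (2.98%) and 494 below (2.8%). Across the genes tested, which are not independent replicates, the WT and Set7KO responses had a Pearson correlation of -0.259 and a Spearman correlation of -0.415, given as a description.

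**Figure D1:**
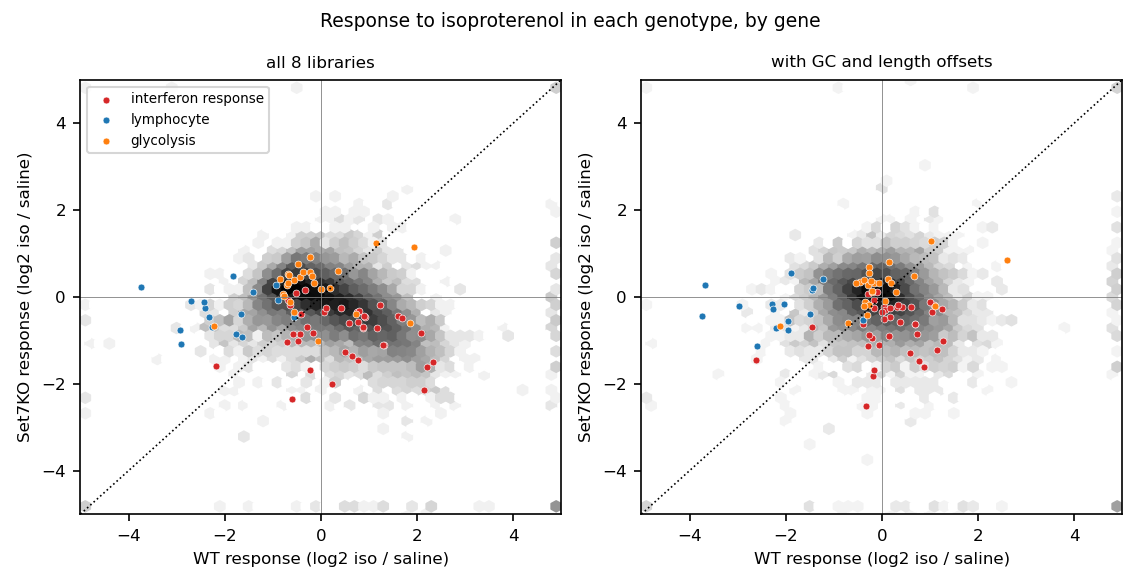
Response to isoproterenol by gene, as log2 isoproterenol over saline, in WT on the horizontal axis and in Set7KO on the vertical axis, with all 8 libraries as deposited on the left and with GC and length offsets on the right. Grey hexagons count genes on a log scale, coloured points are tested members of 3 gene lists, the dotted line marks equal responses, and values beyond the axes are drawn at the edge. Of 39 interferon response genes 33 lie below the dotted line on the left and 33 on the right, and of 16 lymphocyte genes 16 and 15 lie above it, while the downward slope of the grey cloud on the left is weaker on the right.

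The interaction moved with base composition. In 5 equal classes of genes by GC content of the longest transcript, the median interaction went from -1.68 in the lowest class through -0.76, -0.03 and 0.52 to 0.84 in the highest. The difference between the extreme classes was 2.52, and it was 3.14 without Set7KO saline replicate 1 and 1.74 without Set7KO saline replicate 2. Genes in the longest of 5 classes of total exonic length lay 1.03 log2 units lower, by their medians, than those in the shortest. By library, the highest GC class less the lowest, relative to each gene's mean, was 0.55 and 0.86 in WT saline, -1.08 and -0.78 in WT isoproterenol, 0.36 and -0.91 in Set7KO saline and 0.19 and 0.64 in Set7KO isoproterenol. The WT isoproterenol libraries and Set7KO saline replicate 2 were thus on 1 side and the other 5 libraries on the other. In its title Set7KO saline replicate 2 carries the letter of the WT saline libraries (C) and not that of Set7KO saline replicate 1 (B), and the labels do not say what the letter means. Whether base composition or an unlabelled batch accounts for the gene differences below was not tested. The letters otherwise follow the groups, so letter and group cannot be told apart.

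A fit with offsets that remove each library's trend with GC content and length gives a measure of how far each result goes with composition. With these offsets 0 genes passed adjustment (lowest adjusted p = 0.193), 2663 had an unadjusted p under 0.05 (15.1%), 1675 of them higher (9.5%) and 988 lower (5.6%). The difference between the extreme GC classes was 0.102, and the responses of the 2 genotypes had a Pearson correlation of -0.0636. Crossing genes without overlap numbered 883 for WT above and Set7KO below saline (5.01%) and 1224 for the reverse (6.94%). The sign of the interaction differed between the fits for 4873 of the 17636 genes. In both fits, counted by the unadjusted p, 559 genes were higher and 793 lower, and 420 and 651 of these also were without each Set7KO saline library in turn. Below, an interaction or a list median is also given with offsets where that value differs by more than 1.5 times or in sign.

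**Figure D2:**
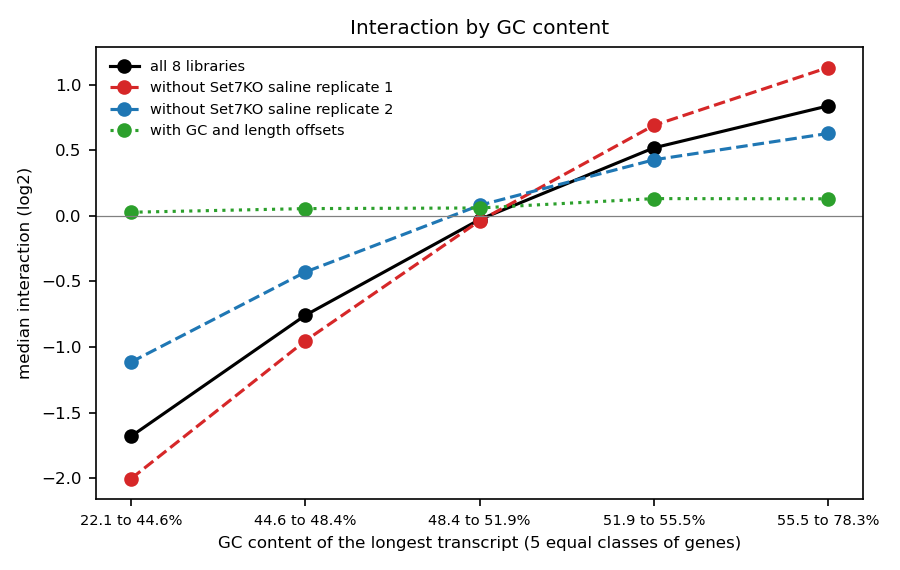
Median interaction (log2, vertical axis) in 5 equal classes of genes by GC content of the longest transcript (horizontal axis), for all 8 libraries, without each Set7KO saline library and with GC and length offsets. The line for all libraries goes from -1.68 to 0.84, is steeper without Set7KO saline replicate 1, flatter without Set7KO saline replicate 2 and nearly flat with offsets.

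In what follows a list's members are counted as higher or lower when their unadjusted p was under 0.05 with a positive or negative interaction, and none of them passed adjustment over all genes with all 8 libraries. Lymphocyte transcripts had the most positive median of the lists examined. All 16 tested members had a positive interaction, 8 at an unadjusted p under 0.05 and 0 in the other direction, against 12% and 18.6% of all genes. Their median was 1.69 against -0.05 over all genes, and 1.63 with offsets, where 10 members had an unadjusted p under 0.05 against a background of 9.5%. The median response was -2.04 in WT and -0.33 in Set7KO. Summed over the list, the markers came to 42.4 and 54.5 normalised CPM in WT saline, 16.2 and 12.5 in WT isoproterenol, 51.2 and 32.2 in Set7KO saline and 42.3 and 30.1 in Set7KO isoproterenol. The WT isoproterenol libraries were thus the 2 lowest of 8, and the Set7KO groups overlapped. The markers Ms4a1 and Klrd1 were not tested, the latter with 0 counts in all 8 libraries.

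Cd79a, a signalling subunit of the B cell receptor (ENSMUSG00000003379, chr7:24897381-24902197, plus strand), measured 2.58 and 2.85 normalised CPM in WT saline, 0.476 and 0.346 in WT isoproterenol, 2.21 and 1.28 in Set7KO saline and 2.02 and 1.21 in Set7KO isoproterenol. Both WT isoproterenol libraries were below the other 6, and the 2 Set7KO groups overlapped. Its interaction was 2.61 ± 0.61 (adjusted p = 0.0876). Igkc, the constant region of the kappa light chain, went from 9.52 and 8.55 normalised CPM with saline to 2.84 and 2.25 with isoproterenol in WT, and from 6.14 and 5.92 to 11.96 and 4.94 in Set7KO, an interaction of 2.31 ± 0.57. Trbc2, a constant region of the T cell receptor beta chain, had an interaction of 2.15 ± 0.66, and Lck, the kinase that starts T cell receptor signalling, of 1.87 ± 0.63. Igha, the constant region of the IgA heavy chain and not a member of the list, was among the 10 smallest p-values of the higher direction. It went from 23.2 and 10.3 normalised CPM with saline to 2.75 and 3.20 with isoproterenol in WT, and from 9.56 and 5.46 to 15.3 and 7.32 in Set7KO, with an interaction of 3.09 ± 0.71 (adjusted p = 0.0876), and the Set7KO groups overlapped again.

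The MHC class II genes named here had interactions in the same direction. Of the 16 tested genes of antigen presentation, 6 had an unadjusted p under 0.05 on the higher side and 0 on the lower, against 12% and 18.6% of all genes. The list's median was 0.69, and 0.32 with offsets, 1.504 without Set7KO saline replicate 1 and 0.29 without Set7KO saline replicate 2. Cd74, the invariant chain that escorts class II molecules, measured 212 and 396 normalised CPM in the WT saline libraries, 31.5 and 36.8 in the WT isoproterenol libraries, 247 and 84.5 in the Set7KO saline libraries and 93.7 and 112 in the Set7KO isoproterenol libraries. The WT isoproterenol libraries were the lowest, and Set7KO saline replicate 2 lay below both Set7KO isoproterenol libraries while replicate 1 lay above them. The interaction was 2.47 ± 0.68 for Cd74, 2.32 ± 0.66 for the class II beta chain H2-Ab1, 2.29 ± 0.63 for H2-Eb1 and 2.05 ± 0.57 for the alpha chain H2-Aa. H2-Eb1 measured 78.01 and 141 normalised CPM in WT saline, 13.1 and 13.7 in WT isoproterenol, 90.6 and 34.4 in Set7KO saline and 34.97 and 39.9 in Set7KO isoproterenol, with the same order of libraries as Cd74. Class II genes mark antigen-presenting cells such as B cells, dendritic cells and some macrophages.

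Macrophage markers had no common direction, with 5 of 16 higher, 2 lower and a median of 0.05 (0.43 with offsets), against 12% and 18.6% of all genes. Csf1r, the receptor for macrophage colony-stimulating factor, had an interaction of 1.22 ± 0.41 (0.81 with offsets), the resident macrophage marker Folr2 of 1.90 ± 0.58, the complement gene C1qb of 1.37 ± 0.49 (0.60 with offsets) and Mertk, a receptor for clearing dead cells, of -1.57 ± 0.40. C1qb measured 98.8 and 119 normalised CPM in WT saline, 40.4 and 38.2 in WT isoproterenol, 106 and 71.4 in Set7KO saline and 54.6 and 110.3 in Set7KO isoproterenol, and the Set7KO groups overlapped. Summed macrophage markers were 462 and 559.7 normalised CPM in WT saline, 281 and 248 in WT isoproterenol, 495 and 392 in Set7KO saline and 329 and 529 in Set7KO isoproterenol. Neutrophil markers had a median of -4.27 over 6 tested members, and of -0.45 without Set7KO saline replicate 2. S100a9, an abundant neutrophil protein, measured 0.896 and 2.45 normalised CPM in WT saline, 5.63 and 2.02 in WT isoproterenol, 4.19 and 65.7 in Set7KO saline and 6.29 and 7.13 in Set7KO isoproterenol, so 1 Set7KO saline library set its interaction of -3.57, which was -0.50 without that library and -2.27 with offsets. The summed neutrophil markers were 113 normalised CPM in that library and 3.87 to 16.1 in the others, and Mmp8 had 214 counts in it and 0 in the other 7. The part of these cells in the other gene groups was not tested.

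Interferon response genes had the most members on the lower side among the pathway lists. Of 39 tested members, 21 had an unadjusted p under 0.05 on the lower side and 0 on the higher side, against 18.6% and 12% of all genes. The median interaction was -1.36, made of a median response of 0.59 in WT and -0.71 in Set7KO, and 17 members crossed from above saline in WT to below saline in Set7KO without overlap, against 11% of all genes. With offsets the median was -0.84 and 10 members were lower, against 5.6% of all genes. The median was -1.22 without Set7KO saline replicate 1 and -1.35 without Set7KO saline replicate 2. Interferons signal through transcription factors that bind the interferon-stimulated response element in the promoters of antiviral genes.

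Gbp4, an interferon-induced guanylate-binding GTPase (ENSMUSG00000079363, chr5:105115767-105139586, minus strand), measured 4.63 and 4.01 normalised CPM in the WT saline libraries, 12.96 and 27.2 in the WT isoproterenol libraries, 15.5 and 9.27 in the Set7KO saline libraries and 3.16 and 4.98 in the Set7KO isoproterenol libraries. Each WT isoproterenol library was above both WT saline libraries, and each Set7KO isoproterenol library was below both Set7KO saline libraries. The Set7KO isoproterenol libraries were close to the WT saline level. The interaction was -3.82 ± 0.62 (adjusted p = 0.0876) and -2.36 with offsets. Ifit2, a sensor of viral RNA (ENSMUSG00000045932, chr19:34550694-34576419, plus strand), measured 2.91 and 2.58 normalised CPM in WT saline, 7.53 and 15.7 in WT isoproterenol, 5.10 and 5.68 in Set7KO saline and 3.10 and 2.93 in Set7KO isoproterenol, with an interaction of -2.92 ± 0.52 and of -1.39 with offsets. WT isoproterenol replicate 2 was the higher of its pair for both genes, and within each genotype the treatment groups did not overlap. Gbp4 is 1 of a cluster of similar Gbp genes, and no source used here gives the treatment of reads shared between copies.

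Ifit3 and its near copy Ifit3b lie beside Ifit2. Ifit3 went from 7.61 and 8.85 normalised CPM with saline to 18.1 and 32.3 with isoproterenol in WT, and from 15.7 and 16.01 to 12.3 and 10.98 in Set7KO, with an interaction of -2.06 ± 0.43 and of -1.52 with offsets. Ifit3b went from 3.66 and 4.28 normalised CPM with saline to 9.12 and 16.7 with isoproterenol in WT, and from 6.66 and 7.97 to 5.72 and 4.79 in Set7KO, with an interaction of -2.18 ± 0.47 and of -1.26 with offsets. The counts of the 2 genes may share reads. The core of the interferon-stimulated response element, TTTCNNTTTC (or GAAANNGAAA on the other strand), was found in 18 of the 29 tested interferon response genes that have a promoter in the RefSeq table, counted over 300 bases from 250 before to 50 after the start, and in 3.99% of all genes of that table. The bases before the start of Ifit3 (chr19:34583279-34583528) and Ifit3b (chr19:34607707-34607956), plus strand, from RefSeq on GRCm38.p6, are printed here because each holds 2 copies of the core, in capitals, beginning 156 and 122 bases before the start of Ifit3 and 188 and 154 before that of Ifit3b.
Ifit3: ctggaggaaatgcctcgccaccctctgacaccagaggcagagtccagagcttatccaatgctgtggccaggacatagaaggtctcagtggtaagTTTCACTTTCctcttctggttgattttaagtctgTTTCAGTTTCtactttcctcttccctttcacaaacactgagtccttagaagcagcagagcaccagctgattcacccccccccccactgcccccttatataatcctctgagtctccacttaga
Ifit3b: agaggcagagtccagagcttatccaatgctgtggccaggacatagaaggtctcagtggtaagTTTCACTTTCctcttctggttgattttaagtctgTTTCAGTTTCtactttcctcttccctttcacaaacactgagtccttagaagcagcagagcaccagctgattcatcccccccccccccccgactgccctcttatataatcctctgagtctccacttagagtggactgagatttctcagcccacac
The match is a description of the sequence and not a measured binding site. Ifit2 had 0 matches in its 2 listed promoters. The list was chosen as interferon response genes, and whether the core goes with the interaction was not tested.

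Genes of the interferon-inducible IFI200 family and the very large GTPases, outside the list, were among those with the smallest p-values or the largest crossing differences. Ifi203 measured 1.12 and 0.762 normalised CPM in WT saline, 4.97 and 6.38 in WT isoproterenol, 2.24 and 5.54 in Set7KO saline and 0.934 and 1.35 in Set7KO isoproterenol, with an interaction of -4.37 ± 0.69 (-2.24 with offsets). Mndal, of the same family, had an interaction of -3.39 ± 0.49 (-1.48 with offsets). Gvin1, an interferon-inducible very large GTPase, went from 2.46 and 0.895 normalised CPM with saline to 5.24 and 15.7 with isoproterenol in WT, and from 7.57 and 6.64 to 0.452 and 2.38 in Set7KO, an interaction of -4.99 ± 1.14 (-3.18 with offsets). In each of these the isoproterenol libraries lay above saline in WT and below saline in Set7KO. These families hold several similar copies, so their counts are uncertain in the same way.

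**Figure D3:**
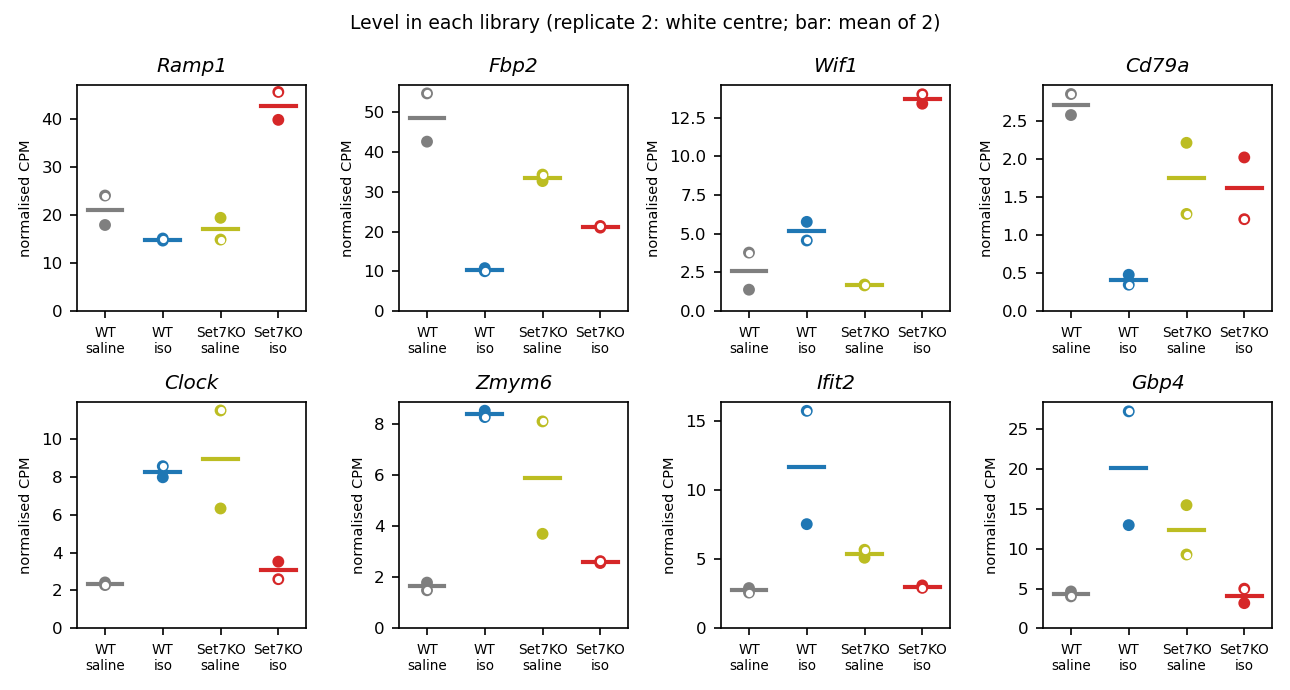
Level in each library (normalised CPM, vertical axis) of 8 genes, by group on the horizontal axis, with filled points for replicate 1, white-centred points for replicate 2 and bars for the mean of 2. Ramp1 and Wif1 are highest in the Set7KO isoproterenol libraries, Cd79a and Fbp2 lowest in the WT isoproterenol libraries, and Clock, Zmym6, Ifit2 and Gbp4 are above saline in WT and below saline in Set7KO.

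Among metabolic genes, glycolysis was higher in the Set7KO response for 13 of 26 tested members and lower for 1, against 12% and 18.6% of all genes, with a median of 0.79. With offsets it was higher for 5 and lower for 1, against 9.5% and 5.6% of all genes in that fit, with a median of 0.30. Fbp2, the muscle fructose-1,6-bisphosphatase (ENSMUSG00000021456, chr13:62836877-62858422, minus strand), measured 42.6 and 54.8 normalised CPM in the WT saline libraries, 10.8 and 10.02 in the WT isoproterenol libraries, 32.7 and 34.3 in the Set7KO saline libraries and 20.99 and 21.4 in the Set7KO isoproterenol libraries. All isoproterenol libraries were below the saline libraries of their genotype, and the gap was larger in WT, where the response was -2.23 against -0.66 in Set7KO. The interaction was 1.56 ± 0.30 (adjusted p = 0.0876) and 1.44 with offsets. Pfkfb2, the heart form of the enzyme that sets fructose-2,6-bisphosphate, differed the other way and measured 33.2 and 24.1 normalised CPM in WT saline, 91.2 and 116 in WT isoproterenol, 36.5 and 70.4 in Set7KO saline and 35.7 and 35.1 in Set7KO isoproterenol. Its interaction was -2.45 ± 0.47, or -1.31 with offsets, and both WT isoproterenol libraries were above the other 6.

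Enolase 3 (Eno3) and Gapdh, enzymes of lower glycolysis, lay highest in the Set7KO isoproterenol libraries. Eno3 went from 3165 and 3690.0 normalised CPM with saline to 2952 and 2896 with isoproterenol in WT, and from 3139 and 2540.0 to 4940.0 and 5870.0 in Set7KO, an interaction of 1.16 ± 0.28 (0.66 with offsets), and Gapdh went from 536 and 758 normalised CPM with saline to 495 and 437 with isoproterenol in WT, and from 511 and 427 to 771 and 819 in Set7KO, an interaction of 1.24 ± 0.32. Gapdh is widely used as a reference gene, and here its libraries spanned 427 to 819 normalised CPM.

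Fatty acid oxidation genes had 12 of 39 members higher and 3 lower, with a median of 0.44, against 12% and 18.6% of all genes. With offsets 7 were higher and 0 lower, against 9.5% and 5.6%. Without Set7KO saline replicate 1 the counts were 10 higher and 12 lower, near the 21% and 25.3% of all genes in that fit, and the median was 0.21. Acads, a dehydrogenase of short-chain fatty acids, had an interaction of 1.39 ± 0.34 (0.58 with offsets), the isomerase Ech1 of 1.23 ± 0.33 (0.74) and the malonyl-CoA decarboxylase Mlycd of 1.15 ± 0.33 (0.34). Ucp2, a carrier of the mitochondrial inner membrane, measured 129.9 and 131 normalised CPM in WT saline, 52.01 and 41.9 in WT isoproterenol, 79.96 and 88.6 in Set7KO saline and 77.97 and 87.1 in Set7KO isoproterenol. The WT isoproterenol libraries were the lowest and the Set7KO groups overlapped, with an interaction of 1.44 ± 0.29 (adjusted p = 0.0876).

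Nuclear genes of oxidative phosphorylation were higher for 21 of 52 members and lower for 3, with a median of 0.47, and higher for 20 and lower for 0 with offsets, with a median of 0.46. This was against 12% higher with all libraries and 9.5% higher with offsets over all genes. Ndufa7, a subunit of complex I, went from 389 and 425 normalised CPM with saline to 175 and 193 with isoproterenol in WT, and from 366 and 253 to 279.7 and 397 in Set7KO, an interaction of 1.27 ± 0.37. Uqcrc1 of complex III had an interaction of 1.18 ± 0.34, and Cox7a1, the muscle form of a complex IV subunit, of 1.497 ± 0.38 (0.84 with offsets). Cox4i1, another subunit of complex IV, had 1.17 ± 0.34, or 0.41 with offsets. In each of the 4 the WT isoproterenol libraries were below both WT saline libraries.

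Transcripts of the mitochondrial genome depended on the offsets. With all libraries 8 of 15 were lower and 0 higher (median -0.92), against 18.6% and 12% of all genes. With offsets 8 were higher and 0 lower (median 1.09), against 9.5% and 5.6%. These transcripts have a median GC content of 36.0%, in the lowest class. mt-Co1, a core subunit of complex IV, measured 5643 and 7640.0 normalised CPM in WT saline, 24160 and 15560 in WT isoproterenol, 8312 and 15660 in Set7KO saline and 13300 and 11120 in Set7KO isoproterenol, and its interaction was -1.55, or 0.41 with offsets. Mitochondrial counts made up 1.84% and 2.11% of the WT saline libraries, 5.73% and 4.39% of WT isoproterenol, 3.01% and 3.8% of Set7KO saline and 3.14% and 3.41% of Set7KO isoproterenol. Cytosolic ribosomal proteins were higher for 21 of 50 members and lower for 3 (median 0.80), against 12% and 18.6% of all genes, and for 17 and 0 with offsets (median 0.61), against 9.5% and 5.6%. The members higher numbered 8 without Set7KO saline replicate 2, against 8.54% of all genes, and without Set7KO isoproterenol replicate 2 the median was 0.37. Rplp0 of the large subunit's stalk had an interaction of 1.18 ± 0.33 and Rps2 of 1.09 ± 0.33 (0.47 with offsets), while Rps24 had -1.77 ± 0.46 (-0.20 with offsets).

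The list of beta-adrenergic signalling, the pathway that isoproterenol acts on, had little common direction. The list also holds alpha-adrenergic receptors. Of 30 tested members of beta-adrenergic signalling, 4 were higher and 3 lower, shares near or below the 12% and 18.6% of all genes, with a median of -0.02. With offsets 1 was higher and 0 lower, against 9.5% and 5.6% of all genes, with a median of 0.16. Adra1b, an alpha-adrenergic receptor, had an interaction of 1.35 ± 0.42 (0.86 with offsets). Grk2, the kinase that desensitises beta receptors, had 0.93 ± 0.34 (0.29 with offsets), and Gnai3, an inhibitory G protein subunit, had -2.22 ± 0.61 (-0.56 with offsets). Of 28 calcium cycling genes 4 were higher and 3 lower, against 12% and 18.6% of all genes, with a median of -0.28 (0.17 with offsets). Trdn, a junctional protein of the ryanodine receptor complex, measured 11.4 and 10.5 normalised CPM in WT saline, 48.6 and 44.3 in WT isoproterenol, 15.3 and 67.6 in Set7KO saline and 14.2 and 12.4 in Set7KO isoproterenol. Set7KO saline replicate 2 was above the WT isoproterenol libraries and replicate 1 was near the remaining ones, and the interaction was -3.73 ± 0.79, or -1.27 with offsets. Orai1, a calcium channel of the plasma membrane, went from 23.2 and 33.01 normalised CPM with saline to 15.7 and 16.2 with isoproterenol in WT, and from 18.6 and 12.96 to 25.4 and 26.2 in Set7KO, an interaction of 1.53 ± 0.38 (0.78 with offsets), and S100a1, a calcium sensor of heart muscle, had 0.87 ± 0.31 (0.36 with offsets).

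Ramp1, a partner of the calcitonin receptor-like receptor that gives it affinity for the vasodilator peptide CGRP (ENSMUSG00000034353, chr1:91179822-91225196, plus strand), measured 17.9 and 24.00 normalised CPM in the WT saline libraries, 14.6 and 15.1 in the WT isoproterenol libraries, 19.4 and 14.8 in the Set7KO saline libraries and 39.7 and 45.5 in the Set7KO isoproterenol libraries. The Set7KO isoproterenol libraries were above all 6 others, while the WT isoproterenol libraries lay below both WT saline libraries. The interaction was 1.81 ± 0.35 (adjusted p = 0.0876), a 3.51-fold difference in the isoproterenol to saline ratio, and 1.53 with offsets.

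Hypertrophy and fetal genes had 1 member higher and 2 lower of 22, shares below the 12% and 18.6% of all genes. Their median was 0.45, which was 0.21 with offsets and 0.98 without Set7KO saline replicate 1. The natriuretic peptide Nppa measured 1606 and 306 normalised CPM in WT saline, 293 and 569 in WT isoproterenol, 359 and 195 in Set7KO saline and 566 and 231 in Set7KO isoproterenol. Its WT saline libraries differed more from each other than the groups did, and its interaction was 1.67 ± 1.04 (adjusted p = 0.286), which was 0.0394 without WT saline replicate 1 and 0.92 without Set7KO isoproterenol replicate 1. The interaction was 0.96 ± 0.96 for the natriuretic peptide Nppb and 1.67 ± 1.44 for skeletal alpha-actin (Acta1). Without Set7KO saline replicate 1 these were 2.75 and 4.39, and without Set7KO saline replicate 2 0.19 and 0.80. It was 0.28 ± 0.25 for the slow myosin heavy chain Myh7, which was -0.22 with offsets. Acta1 in Set7KO saline was 919 normalised CPM in replicate 1 and 75.9 in replicate 2. Xirp2, an actin-binding protein of the intercalated disc, measured 76.6 and 45.9 normalised CPM in WT saline, 261 and 245 in WT isoproterenol, 136 and 198 in Set7KO saline and 71.8 and 112 in Set7KO isoproterenol, with an interaction of -2.91 ± 0.47 (adjusted p = 0.0876) and of -1.08 with offsets. Pln, the inhibitor of the sarcoplasmic calcium pump, had -2.005 ± 0.51, or 0.09 with offsets. Cardiomyocyte markers as a whole were higher for 6 of 16 members and lower for 2 (median 0.62), against 12% and 18.6% of all genes, and for 2 and 0 with offsets (median 0.31), near the 9.5% and 5.6% of all genes. The cardiac transcription factor Nkx2-5 had an interaction of 1.41 ± 0.36 (0.60 with offsets) and troponin I (Tnni3) of 0.94 ± 0.32 (0.33 with offsets). Summed cardiomyocyte markers spanned 102200 to 148000 normalised CPM over the 8 libraries.

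Extracellular matrix genes turned on which Set7KO saline library was used. With all libraries 3 of 52 were higher and 5 lower (median 0.67), shares below the 12% and 18.6% of all genes. Without Set7KO saline replicate 1 there were 33 higher and 6 lower (median 1.52), against 21% and 25.3% of all genes in that fit. Without Set7KO saline replicate 2 there were 4 and 4 (median 0.18), against 8.54% and 11.8%. Col1a1, the main chain of fibrillar collagen I, measured 162 and 253 normalised CPM in WT saline, 155 and 163 in WT isoproterenol, 266 and 65.6 in Set7KO saline and 275 and 253 in Set7KO isoproterenol. Set7KO saline replicate 2 was the lowest of the 8 libraries for Col1a1 and replicate 1 was within the range of the Set7KO isoproterenol libraries. The interaction of Col1a1 was 1.06 ± 0.76, or 0.50 with offsets, 2.40 without Set7KO saline replicate 1 and 0.39 without Set7KO saline replicate 2, and that of Col3a1, a chain of collagen III, was 0.74 ± 0.76. Summed resident fibroblast markers were 2565 normalised CPM in Set7KO saline replicate 2 and 4133 to 7349 in the others. Activated fibroblast genes had 0 higher and 2 lower of 22 (median 0.47), shares below the 12% and 18.6% of all genes. Their median was 1.29 without Set7KO saline replicate 1 and 0.05 without Set7KO saline replicate 2.

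Postn, a matricellular protein of activated fibroblasts, measured 4.74 and 6.93 normalised CPM in WT saline, 35.5 and 17.3 in WT isoproterenol, 8.68 and 4.46 in Set7KO saline and 15.8 and 5.96 in Set7KO isoproterenol, and its interaction was -1.44 ± 0.77, or 0.78 with offsets. The interaction of elastin (Eln) was 0.22 ± 0.74, or -0.30 with offsets. Among small leucine-rich proteoglycans, Lum had -2.31 ± 0.63 (-0.65 with offsets), Ogn -3.01 ± 0.90 (-1.04) and Dcn -1.73 ± 0.58 (0.52). Lum measured 4.40 and 3.61 normalised CPM in WT saline, 29.2 and 20.1 in WT isoproterenol, 5.66 and 9.91 in Set7KO saline and 13.6 and 5.78 in Set7KO isoproterenol, and both WT isoproterenol libraries were above the other 6. Loxl4, a lysyl oxidase that crosslinks collagen, had 1.69 ± 0.50 (1.01 with offsets). Resident fibroblast markers were higher for 6 of 16 and lower for 2 (median 0.79), against 12% and 18.6% of all genes, and for 2 and 0 with offsets, against 9.5% and 5.6%. The members higher numbered 10 without Set7KO saline replicate 1, against 21% of all genes, and without replicate 2 they numbered 3, against 8.54%, with a median of 0.37. The list's members included Pi16 at 1.30 ± 0.45 and Dpep1 at 1.03 ± 0.38 (0.86 and 0.64 with offsets).

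Of 23 genes of TGF-beta signalling, 1 was higher and 3 lower, shares below the 12% and 18.6% of all genes. Their median was 0.37, and 0.05 with offsets. The ligand Tgfb1 had an interaction of 1.27 ± 0.56, the type I receptor Tgfbr1 of -2.74 ± 0.69 (-0.91 with offsets) and the induced matrix protein Tgfbi of 0.82 ± 0.31 (0.44 with offsets). Of 38 genes of Wnt signalling, 5 were higher and 3 lower (median 0.29, and -0.04 with offsets), and the share higher was near the 12% of all genes. Wif1, a secreted protein that binds and blocks Wnt ligands (ENSMUSG00000020218, chr10:121033960-121100650, plus strand), measured 1.38 and 3.78 normalised CPM in the WT saline libraries, 5.76 and 4.56 in the WT isoproterenol libraries, 1.66 and 1.71 in the Set7KO saline libraries and 13.4 and 14.01 in the Set7KO isoproterenol libraries. The Set7KO isoproterenol libraries were above all others by more than the spread of any group. The interaction was 2.02 ± 0.60 (adjusted p = 0.0979), 2.17 with offsets and 1.15 without WT saline replicate 2. The co-receptor Lrp6 had -2.06 ± 0.56 (-0.83 with offsets), Lrp5 0.91 ± 0.31 (0.59) and the transcription factor Tcf7l1 1.07 ± 0.32 (0.25). The ligand Wnt10a had 0 counts in all 8 libraries.

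Clock genes had 2 of 19 members higher (10.5%) and 3 lower (15.8%), shares near the 12% and 18.6% of all genes. Their median was near 0 with all 8 libraries and -0.07 with offsets, but it moved with single libraries. Leaving out the first Set7KO saline library gave -0.23, and leaving out the second gave 0.68. When WT saline replicate 2 was omitted the median was 0.47. Clock (ENSMUSG00000029238, chr5:76209868-76304792, minus strand), which pairs with Arntl to drive circadian transcription, measured 2.43 and 2.29 normalised CPM in the WT saline libraries, 7.99 and 8.57 in the WT isoproterenol libraries, 6.34 and 11.5 in the Set7KO saline libraries and 3.52 and 2.60 in the Set7KO isoproterenol libraries. It was above saline in WT and below saline in Set7KO with no overlap, with an interaction of -3.36 ± 0.49 (adjusted p = 0.0876) and of -1.29 with offsets. Rora, an activator of Arntl, had -3.35 ± 0.78 (-1.18 with offsets). Of the 2 REV-ERB repressors, Nr1d1 had 1.39 ± 0.43 (0.78 with offsets) and Nr1d2 -3.22 ± 1.03 (-1.48 with offsets). Nr1d2 measured 12.2 and 2.95 normalised CPM in WT saline, 43.2 and 40.96 in WT isoproterenol, 6.92 and 29.7 in Set7KO saline and 11.8 and 10.2 in Set7KO isoproterenol, and its 2 Set7KO saline libraries differed by more than 4 times. The time of day at collection is not given in the labels.

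A list of histone H3 lysine 4 and SMYD methyltransferases also holds related enzymes, among them demethylases, and Setd7 itself. It had 7 of 26 members lower (26.9%), Setd7 among them, and 1 higher (median -0.40). Of all genes 18.6% were lower and 12% higher, so these were also more often lower than higher. With offsets there were 5 lower and 1 higher (median -0.17), against 5.6% and 9.5% of all genes in that fit. Kmt2c, a catalytic subunit of a COMPASS-like complex, measured 15.1 and 15.9 normalised CPM in WT saline, 40.6 and 48.3 in WT isoproterenol, 16.7 and 37.7 in Set7KO saline and 17.9 and 11.9 in Set7KO isoproterenol, with an interaction of -2.39 ± 0.54 and of -1.37 with offsets. Set7KO saline replicate 2 was near the WT isoproterenol level and replicate 1 near that of the other groups. Ash1l had -1.99 ± 0.55 (-0.59 with offsets) and Setd2, the enzyme that trimethylates histone H3 lysine 36, -1.91 ± 0.46 (-0.41 with offsets). Cell cycle genes had 0 higher and 2 lower of 41 (median 0.23), shares below the 12% and 18.6% of all genes. The transcription factor E2f1 had an interaction of 1.10 ± 0.62 (0.41 with offsets). Sex-linked genes, listed to check the samples, were lower for 7 of 9 members (median -2.56), against 18.6% of all genes. With offsets 4 were lower (median -0.72), against 5.6%. Their median GC content was 42.5%, in the lowest class. The Y-linked demethylase Kdm5d had -2.41 ± 0.50 (-0.70 with offsets), the helicase Ddx3x -2.56 ± 0.53 (-0.74) and the translation factor Eif2s3y -3.43 ± 0.68 (-1.40).

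**Figure D4:**
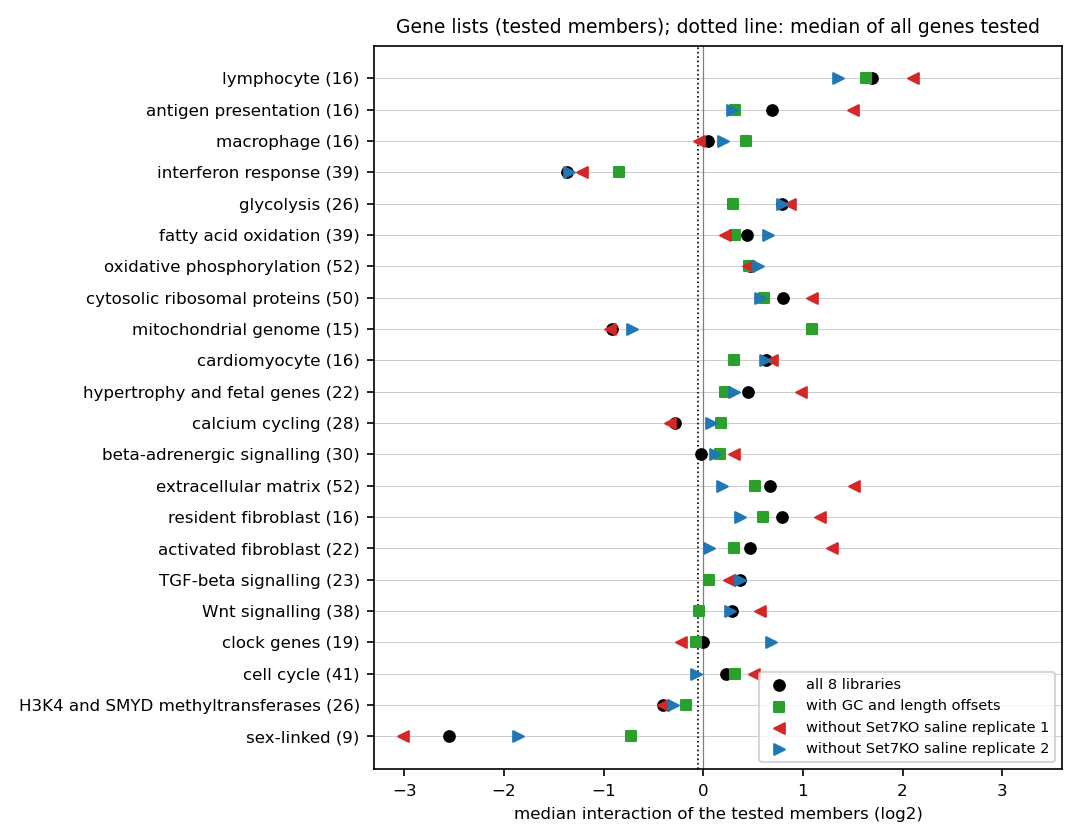
Median interaction (log2, horizontal axis) of the tested members of 22 gene lists (vertical axis, number tested in brackets), for all 8 libraries, with GC and length offsets, and without each Set7KO saline library. The lymphocyte list is highest in all 4 fits (1.69, 1.63, 2.11 and 1.35) and the interferon list is below 0 in all 4 (-1.36, -0.84, -1.22 and -1.35), while the mitochondrial genome is at -0.92 without and 1.09 with offsets.

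None of the following genes passed adjustment. Those with the lowest p were 10 in each direction at a mean of 2 CPM or more, each at an adjusted p of 0.0876. All 20 passed in the fit without Set7KO saline replicate 1, in the fit with no filter on low counts and in DESeq2, and 0 passed without Set7KO saline replicate 2. With offsets, 5 of the 20 passed without Set7KO saline replicate 1 and 11 passed in DESeq2. On the higher side, besides Ramp1, Fbp2, Ucp2 and Igha, stood Nrtn, Fdx1l, Bcam, Smtnl2, Cyp4b1 and Map1lc3a. Nrtn, encoding neurturin, a ligand of the GDNF family, went from 26.8 and 32.7 normalised CPM with saline to 11.8 and 9.53 with isoproterenol in WT, and from 19.1 and 10.8 to 23.9 and 28.7 in Set7KO, an interaction of 2.31 ± 0.44. Cyp4b1, a cytochrome P450, went from 40.8 and 49.6 normalised CPM with saline to 22.5 and 23.9 with isoproterenol in WT, and from 37.8 and 27.4 to 52.1 and 43.5 in Set7KO, an interaction of 1.51 ± 0.34. Both crossed, below saline in WT and above it in Set7KO, without overlap, as did 7.58% of all genes. Bcam, a laminin receptor, had 1.40 ± 0.30 (0.54 with offsets), and Smtnl2, a smoothelin-like protein, had 1.41 ± 0.31. The autophagosome protein Map1lc3a had 1.46 ± 0.33 (0.56 with offsets) and Fdx1l, a mitochondrial ferredoxin, 1.84 ± 0.36 (0.94 with offsets).

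On the lower side, besides Clock, Xirp2, Gbp4, Ifi203 and Mndal, the genes included Zmym6, Zfp292, Cenpj and Kctd12b. Zmym6, a zinc finger protein (ENSMUSG00000042408, chr4:127077383-127124372, plus strand), measured 1.79 and 1.49 normalised CPM in the WT saline libraries, 8.53 and 8.28 in the WT isoproterenol libraries, 3.71 and 8.11 in the Set7KO saline libraries and 2.56 and 2.63 in the Set7KO isoproterenol libraries. Its WT isoproterenol libraries were above both WT saline libraries and its Set7KO isoproterenol libraries below both Set7KO saline libraries, with Set7KO saline replicate 2 at the WT isoproterenol level. The interaction was -3.55 ± 0.55, and -2.01 with offsets. Zfp292, another zinc finger protein, had -4.83 ± 0.78 (-2.72 with offsets), the centriole protein Cenpj -3.11 ± 0.47 (-2.04) and Kctd12b -3.06 ± 0.47 (-1.17). All 10 of the lower side crossed without overlap, against 11% of all genes. They were chosen by a small p in these same libraries, so the pattern adds no support. With offsets Gbp4 and Xirp2 did not cross in this way.

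With offsets the smallest p-values belonged in part to other genes. On the lower side they included Zmym6, Cdc14b (-1.84 ± 0.34 with offsets), Pcdhgc5 (-2.31 ± 0.44) and Zfp292. On the higher side they were Hint3 (2.45 ± 0.32), Cacnb2 (1.88 ± 0.28), Hist1h1d (3.20 ± 0.49), Mrps30 (1.86 ± 0.29) and Ube2d2a (1.93 ± 0.30). Cacnb2, a beta subunit of the L-type calcium channel, measured 44.6 and 41.9 normalised CPM in WT saline, 61.7 and 53.9 in WT isoproterenol, 32.4 and 50.5 in Set7KO saline and 47.95 and 38.9 in Set7KO isoproterenol, and its groups overlapped. Without offsets the interaction was 0.29 for Hint3, -0.35 for Cacnb2, -0.08 for Mrps30 and -0.25 for Ube2d2a, so their values with offsets are set by the offsets. Pcdhgc5, a clustered protocadherin, shares its last exons with the other genes of its cluster, so its counts are uncertain.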

How the data were processed

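RNA from 8 mouse hearts or heart samples was made into stranded mRNA libraries and sequenced as single reads, per the labels' protocols. The authors deposited whole-number counts for each gene in each library. HISAT2, HISAT, StringTie and edgeR, and the genome GRCm38, appear in the submitters' processing notes, while roles, versions and the strand setting are not stated in any source used here. Counts were listed for 55487 identifiers, 29066 with a count in at least 1 library, and 55227 had a symbol in GENCODE M21 for GRCm38.

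In edgeR 4.0.16 under R 4.3.3, with TMM and filterByExpr (17636 genes kept), all 8 libraries entered a model of 4 group means, and the interaction was tested with two-sided quasi-likelihood F-tests with Benjamini-Hochberg adjustment and a threshold of 0.05. The fit left 4 residual and 4.36 prior degrees of freedom, with a biological coefficient of variation of 28.4%. SEs come from the F statistic and the log2 value. Levels in normalised CPM use TMM library sizes and compare libraries and not genes. Offsets were made per library from natural splines of 5 degrees of freedom in the GC content of the longest transcript and in exonic length, fitted to log2 CPM with a prior count of 2 as the deviation from each gene's mean, for 17604 genes with both values. In sentences on gene lists, "higher" and "lower" count tested members with an unadjusted p under 0.05 and a positive or negative interaction. No paired fit was made.

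Alternatives were 19 in all: other scalings, filters, tests (limma 3.58.1, DESeq2 1.42.0), robust fitting, leaving out each of 8 libraries, and the offsets. For the GC classes, the fit with offsets and all libraries and the fits without each library outside the Set7KO saline group were not planned. For the length classes, none of the alternatives was planned. These and the list counts without each Set7KO saline library were added after seeing the data. The procedure was tested on simulated counts. The members and the 36 gene lists (22 of pathways, 14 of cell types) were chosen with earlier results of these data known. Named genes are Setd7, the 10 smallest p-values a direction at a mean of 2 CPM (5 with offsets), the 5 largest crossing differences a direction, up to 4 members a list described with the smallest p at 1 CPM, and a few fixed genes. Predicted and clone-named genes, pseudogenes and ribosomal proteins outside their list were left out by name, and not every gene the rule takes is printed, some of them being not reported here. The genes with 0 counts in a single library were named after their values were seen.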

Additional observations from a re-analysis of the deposited data

Results flagged for a closer look

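In 10 genes every isoproterenol library lay on one side of the saline libraries in WT and on the opposite side in Set7KO, and the absolute interaction was among the 5 largest of such genes in its direction. The difference itself was tested with edgeR's quasi-likelihood test and passed Benjamini-Hochberg adjustment for 0 of the 10, and genes of this pattern were 11% and 7.58% of all genes tested in the respective direction.

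On the higher side, with WT below and Set7KO above saline, were Nrtn at 2.31, Drd2 at 4.18, Prn at 4.13, Scamp4 at 3.39 and Helt at 2.22. Drd2, a dopamine receptor, measured 1.31 and 8.62 normalised CPM in WT saline, 1.16 and 0.664 in WT isoproterenol, 1.17 and 1.77 in Set7KO saline and 3.40 and 6.59 in Set7KO isoproterenol, and its WT saline libraries differed by more than the groups of Set7KO. Prn measured 4.37 and 8.39 normalised CPM in WT saline, 0 and 2.77 in WT isoproterenol, 0 and 1.20 in Set7KO saline and 2.41 and 2.38 in Set7KO isoproterenol. With a library at 0 in 2 groups, its fitted value rests on the other library of each. It was 12.7 without WT isoproterenol replicate 2 and 11.6 without Set7KO saline replicate 2, fits that leave a group at 0. Scamp4, a membrane protein of secretory carriers, measured 29.97 and 55.1 normalised CPM in WT saline, 10.6 and 0.318 in WT isoproterenol, 27.2 and 19.2 in Set7KO saline and 28.6 and 34.6 in Set7KO isoproterenol, and 1 WT isoproterenol library stood far below its pair. Helt, a transcriptional repressor, went from 3.06 and 4.04 normalised CPM with saline to 1.95 and 1.70 with isoproterenol in WT, and from 1.98 and 0.837 to 2.68 and 3.99 in Set7KO.

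On the lower side, with WT above and Set7KO below saline, were Esf1 at -5.10, Gvin1 at -4.99, Ppp1r3a at -4.98, Thoc2 at -4.93 and Fgf2 at -4.88. With offsets they were -3.17, -3.18, -2.73, -2.54 and -3.301. Esf1, a nucleolar protein of ribosome assembly, went from 0.522 and 0.232 normalised CPM with saline to 3.74 and 4.18 with isoproterenol in WT, and from 2.08 and 3.95 to 0.482 and 1.39 in Set7KO. Ppp1r3a, which targets protein phosphatase 1 to glycogen, went from 4.33 and 1.23 normalised CPM with saline to 10.9 and 13.9 with isoproterenol in WT, and from 3.61 and 23.4 to 1.60 and 2.27 in Set7KO, and Thoc2, of the mRNA export complex THO, went from 1.01 and 0.398 normalised CPM with saline to 4.27 and 4.99 with isoproterenol in WT, and from 1.82 and 6.28 to 0.361 and 1.43 in Set7KO. Fgf2, the basic fibroblast growth factor, measured 0.672 and 1.39 normalised CPM in WT saline, 6.83 and 8.98 in WT isoproterenol, 9.20 and 9.67 in Set7KO saline and 4.28 and 0.549 in Set7KO isoproterenol. In Fgf2 both Set7KO saline libraries were near the WT isoproterenol libraries.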

How the results depend on the processing

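The count of genes past the adjusted threshold was 0 with all libraries and in most alternatives, but 1686 with no filter on low counts (119 higher, 1567 lower) and 2321 in DESeq2 (822 higher, 1499 lower). Leaving out 1 library at a time gave 0 to 5778, with 5778 (2500 higher, 3278 lower) when Set7KO saline replicate 1 was omitted, 1 for replicate 2 of that group and 0 for each of the other 6. Of the DESeq2 calls 2218 were among the 5778. With GC and length offsets the count was 0, 496 without Set7KO saline replicate 1 (392 higher, 104 lower, 232 of the 496 among the 5778), 1 without Set7KO saline replicate 2 and 631 in DESeq2 (547 higher, 84 lower). Fits without a library leave 1 library in its group, which is assumed to vary like the others. The cause of these differences was not tested.

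At an unadjusted p under 0.05 there were 5400 genes, 2688 (without WT isoproterenol replicate 1) to 8456 (without Set7KO saline replicate 1) when 1 library was left out, with 3161 without Set7KO isoproterenol replicate 2 and 3423 and 3472 without WT saline replicate 2 and WT isoproterenol replicate 2. With offsets there were 2663, 1965 without Set7KO saline replicate 2 and 2678 in DESeq2. Crossing genes numbered 3277, and 2107 with offsets. The difference between the extreme GC classes was 2.52, from 1.74 to 3.14 when 1 library was left out, and 0.102 with offsets (0.142 and 0.0606 when the first or the second Set7KO saline library was also left out). That between the extreme length classes was -1.03, from -1.36 to -0.70 when 1 library was left out, and -0.16 with offsets (-0.28 and -0.0642 likewise). The median interaction over all genes was -0.05, 0.00 with DESeq2's size factors, -0.13 with upper quartile scaling and 0.09 with offsets. Of 36 list medians, 19 kept their sign in every alternative and 17 did not, the mitochondrial genome among the latter.

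Some genes not described elsewhere changed sign with offsets, such as mt-Co2 (-1.59 to 0.38) and Emcn (-1.045 to 0.75). Among the genes described in this text, single genes changed sign in the following. With offsets the interaction was 1.88 for Cacnb2, 1.86 for Mrps30, 1.93 for Ube2d2a, 0.52 for Dcn, 0.0924 for Pln, 0.41 for mt-Co1, -0.22 for Myh7, 0.78 for Postn, -0.30 for Eln and 0.0549 for Hsp90b1. With offsets and without Set7KO saline replicate 1 it was 2.03 for Cacnb2, 1.85 for Mrps30, 2.16 for Ube2d2a, 0.36 for Dcn, 0.36 for mt-Co1, -0.46 for Myh7, 1.82 for Postn and 0.46 for Hsp90b1. With offsets and without Set7KO saline replicate 2 it was 1.73 for Cacnb2, 1.87 for Mrps30, 1.72 for Ube2d2a, 0.69 for Dcn, 0.40 for Pln, 0.53 for mt-Co1, 0.21 for S100a9, -0.0469 for Col1a1, -0.000802 for Col3a1, 0.12 for Postn and -0.78 for Eln. With offsets in DESeq2 it was 1.94 for Cacnb2, 1.91 for Mrps30, 1.99 for Ube2d2a, 0.57 for Dcn, 0.15 for Pln, 0.46 for mt-Co1, -0.16 for Myh7, 0.81 for Postn, -0.25 for Eln and 0.11 for Hsp90b1. When 1 library was left out and no offsets were used, the interaction spanned -0.63 to 0.0240 for Cacnb2, -0.46 to 0.0223 for Ube2d2a, -0.42 to 0.404 for Mrps30 and -0.38 to 1.31 for Eln, each extreme coming from leaving out 1 of the Set7KO saline libraries. Mrps30 was also 0.0330 without WT isoproterenol replicate 1 and 0.0589 without Set7KO isoproterenol replicate 2, and Eln -0.36 without WT saline replicate 2.

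No paired analysis was possible because the labels number the libraries by animal or library code and give no replicate number shared between groups. Some named genes below an unadjusted p of 0.05 moved by over 1.5 times with 1 library. Without Set7KO saline replicate 2 the interaction was -1.22 for Ash1l, -1.10 for Dcn, -1.31 for Lrp6, -1.78 for Nr1d2, -1.23 for Pln, -2.09 for Rora, -1.15 for Rps24, -2.27 for Trdn and 0.76 for Pdgfrb (1.75 without replicate 1). Without Set7KO isoproterenol replicate 2 it was 0.78 for C1qb and 1.15 for Folr2, and without WT saline replicate 2 it was 1.19 for Dbh. With 2 libraries a group the SE of the interaction was 0.30 for Fbp2 at a mean of 28.45 CPM, 0.47 for Cenpj at 2.01, 1.44 for Acta1 at 595.5 and 2.16 for Prn, which had libraries at 0, so the error did not follow the level alone.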

Other observations

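Mural cell, nerve and stress genes were not described above. Smooth muscle and pericyte markers were higher for 5 of 14 members and lower for 1 (median 0.80), against 12% and 18.6% of all genes. With offsets 1 was higher and 0 lower (median 0.35), against 9.5% and 5.6%. The median of 0.80 became 0.28 without WT saline replicate 1 and 0.41 without Set7KO saline replicate 2. Pdgfrb, the PDGF receptor of pericytes, had an interaction of 1.16 ± 0.44 (0.72 with offsets), and Rgs5, a pericyte regulator of G protein signalling, of -1.98 ± 0.44 (-0.34 with offsets). Rgs5 measured 92.6 and 47.7 normalised CPM in WT saline, 228 and 197 in WT isoproterenol, 119 and 140.2 in Set7KO saline and 106 and 92.3 in Set7KO isoproterenol. Of 10 neural and Schwann markers 1 was higher and 1 lower, against 12% and 18.6% of all genes. The higher was Dbh, the enzyme that makes noradrenaline, at 2.12 ± 0.67, and went from 4.07 and 11.7 normalised CPM with saline to 4.06 and 4.36 with isoproterenol in WT, and from 5.66 and 3.41 to 10.03 and 10.8 in Set7KO.

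Of 20 genes of the endoplasmic reticulum stress response 1 was higher and 2 lower, shares below the 12% and 18.6% of all genes. Their median was 0.0852, and 0.296 with offsets. The chaperone Hsp90b1 measured 65.9 and 82.9 normalised CPM in WT saline, 98.4 and 93.8 in WT isoproterenol, 127 and 126 in Set7KO saline and 57.2 and 57.96 in Set7KO isoproterenol, an interaction of -1.51 ± 0.28, or 0.05 with offsets. Of 27 NF-kB and cytokine genes 4 were higher and 3 lower (median 0.05, and 0.31 with offsets), against 12% and 18.6% of all genes. Ccl5, a chemokine of T cells, went from 2.09 and 4.24 normalised CPM with saline to 0.227 and 0 with isoproterenol in WT, and from 4.06 and 1.67 to 1.54 and 1.10 in Set7KO. Its interaction was 3.55 ± 1.18 and rests on a WT isoproterenol group with few or 0 counts. It was 8.62 without WT isoproterenol replicate 1, which leaves that group at 0, and 2.68 without replicate 2. Rela, an NF-kB subunit that Set7 is known to methylate, had 1.20 ± 0.45 (0.46 with offsets). A list of known substrates and partners of Set7 also holds Setd7 itself. Of its 23 tested genes, 1 was higher and 4 lower (median -0.19, and 0.14 with offsets). Setd7 was among the lower, whose share was near the 18.6% of all genes. Jund, an AP-1 subunit, had 1.63 ± 0.53 (0.85 with offsets). It was 1 of 2 immediate early genes higher of 23, with 0 lower, against 12% and 18.6% of all genes. The list's median was 0.74, 0.31 with offsets, 1.46 without Set7KO saline replicate 1 and 0.19 without replicate 2.

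Marker lists of atrium, red blood cells and fat moved with single libraries. The atrial median was -0.47 over 9 members, and over the fits without 1 library it went from -2.74 without WT saline replicate 1 to 2.24 without WT isoproterenol replicate 2, with 1.33 without Set7KO saline replicate 1. The erythroid median was 0.34 over 8, -0.0231 with offsets, and -0.19 and 1.06 without the first and the second Set7KO saline library. Summed erythroid markers reached 10540 normalised CPM in Set7KO saline replicate 2, against 1257 to 4357 in the others. Of 8 adipocyte markers 4 had a group at 0, and the median was -5.02, or -2.32 with those members at their bound. Without WT isoproterenol replicate 2 the adipocyte median was -0.62.

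A pair of protein-coding genes had 0 counts in 1 library and at least 10 CPM in each of the other 7. They were Sept2, a septin of the cytoskeleton, in Set7KO saline replicate 1, and the deubiquitinase gene Usp50 in Set7KO isoproterenol replicate 1. Sept2 was at 17.2 to 54.0 CPM in the other libraries and Usp50 at 25.3 to 55.3. Sept2 was the 1 gene past adjustment without Set7KO saline replicate 2, a fit in which its Set7KO saline level is 0, so the fitted fold is no bound on the difference. How the count of 0 arose was not tested.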
